A study of Mus musculus with 6 samples.

Results

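The transcripts of 10 de novo lipogenesis genes were followed in brown adipose tissue (BAT) of HFD-fed and LFD-fed mice. The genes encode 7 enzymes (*Acly*, *Acaca*, *Acacb*, *Fasn*, *Me1*, *Scd1* and *Scd2*) and 3 regulators (*Srebf1*, *Mlxipl* and *Thrsp*). They were found by gene symbol, and all 10 were present among the 47729 genes quantified and among the 17668 genes that passed the filter on low counts. All 6 mice were male wild type C57BL/6J, were housed singly at room temperature and were fed from 6 to 10 weeks of age. The 3 HFD mice received a purified diet labelled 45% high-fat diet, and the 3 LFD mice received a standard rodent diet from another supplier. Fat content therefore cannot be told apart from the other ingredients of the diets. Interscapular BAT of the right side was taken after 4 weeks, and of a larger group of each diet the fattest mouse, the leanest and one between them were sequenced. Which replicate number belongs to which of these mice was not given in the sources used here, and the 3 mice of a diet were picked to span fat mass rather than drawn alike.

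De novo lipogenesis builds fatty acids from citrate that leaves the mitochondrion. ATP citrate lyase (*Acly*) splits citrate into acetyl-CoA, acetyl-CoA carboxylase (*Acaca*) makes malonyl-CoA, and fatty acid synthase (*Fasn*) joins these units with NADPH that malic enzyme (*Me1*) helps to supply. Stearoyl-CoA desaturases (*Scd1*, *Scd2*) then place a double bond in the product. Insulin acts on the pathway through SREBP-1c (*Srebf1*) and sugar through ChREBP (*Mlxipl*). In BAT the pathway is known to work beside fatty acid oxidation, and dietary fat is known to lower it in liver and adipose tissue.

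The stretches in front of 3 of these genes are shown because their levels are compared throughout. *Fasn* varied most between mice, *Thrsp* is a target gene without enzyme activity, and *Mlxipl*, added after the values were seen, encodes the sugar-responsive factor and held the E-box match. Each is the 250 bases before the start of transcription in RefSeq on GRCm38.p6, read 5′ to 3′ on the strand of the gene. GENCODE M21, used for the gene positions below, starts *Thrsp* at 97417730, inside its window. Most of the *Thrsp* stretch, with both marked matches, therefore lies within the gene in that annotation. Capitals mark the letters CCAAT, the motif of NF-Y, and CACGTG, an E-box of the kind bound by USF and ChREBP, on either strand.
Fasn, chr11:120824548-120824797, minus strand: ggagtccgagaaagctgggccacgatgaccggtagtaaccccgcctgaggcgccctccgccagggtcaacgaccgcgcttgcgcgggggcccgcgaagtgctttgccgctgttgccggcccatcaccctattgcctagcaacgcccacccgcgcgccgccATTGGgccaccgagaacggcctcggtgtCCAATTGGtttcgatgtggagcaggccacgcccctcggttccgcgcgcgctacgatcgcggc
Thrsp, chr7:97417551-97417800, minus strand: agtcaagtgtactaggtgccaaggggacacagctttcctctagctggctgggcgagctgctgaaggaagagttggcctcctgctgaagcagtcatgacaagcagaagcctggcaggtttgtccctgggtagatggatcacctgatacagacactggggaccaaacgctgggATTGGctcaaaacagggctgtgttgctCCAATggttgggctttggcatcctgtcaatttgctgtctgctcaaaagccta
Mlxipl, chr5:135089640-135089889, plus strand: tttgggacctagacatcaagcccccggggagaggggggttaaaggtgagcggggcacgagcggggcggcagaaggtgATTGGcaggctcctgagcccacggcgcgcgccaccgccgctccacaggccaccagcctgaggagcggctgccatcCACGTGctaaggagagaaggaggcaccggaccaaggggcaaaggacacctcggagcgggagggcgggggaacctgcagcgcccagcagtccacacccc
Of the 10 genes, 8 had an entry in the promoter table, with 12 promoters between them, and *Scd1* and *Scd2* had none. CCAAT was found in 7 of these 12 promoters, belonging to *Fasn*, *Acacb*, *Me1*, *Srebf1*, *Mlxipl* and *Thrsp*, and in 33.8% of all 32851 promoters of the same length. In the *Fasn* stretch 2 of its 3 matches overlap, one on each strand. CACGTG was found for *Mlxipl* alone among these genes and in 6.02% of all promoters. The sterol regulatory element type TCACNCCAC was found in the other *Mlxipl* promoter and in 1.05% of all promoters. These matches describe the letters in the window and show no binding.

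The libraries held 17156991 to 21603487 rounded counts per mouse. No pair of mice was a repeated library. The label of the tissue was checked against its markers. *Ucp1*, the uncoupling protein that defines brown adipocytes, was at 796 to 4021 TPM (a level per transcript length, scaled to the same total in each mouse) in HFD mice and at 11.03 to 443 TPM in LFD mice, and the lowest of these values was that of LFD replicate 2. *Cidea*, a lipid droplet protein of brown adipocytes, was at 222 to 734 TPM in HFD and 18.9 to 222 TPM in LFD mice. The LFD libraries also held skeletal muscle transcripts, with 14 of 14 muscle markers higher in every LFD mouse than in every HFD mouse and a summed level of 2077 to 14640 TPM against 18.2 to 239 TPM. None of the 14 was at 0 in any mouse. Mitochondrially encoded genes took 3.87% to 13.8% of the counts in LFD and 8.50% to 22.7% in HFD mice. The part of these differences in the values below was not tested. In a piece of tissue, fewer cells of a type and less RNA per cell cannot be told apart.

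Whether HFD feeding went with a lower level of the lipogenic transcripts was asked by comparing the diets. The levels were lower in HFD than in LFD BAT for 8 of 10 genes in each of the 3 pairs of mice with the same replicate number. The exceptions were *Acacb* and *Mlxipl*, which were lower in 1 pair each. These 8 were lower in every pair on both the log2 CPM scale (counts scaled to library size with TMM factors) and the TPM scale. Among all genes tested, 21.3% were lower in every pair in log2 CPM and 36.9% in TPM. This count over pairs was not planned in advance, and the sources do not say that mice were paired across diets. The median log2 fold change (HFD over LFD) of the 10 genes was -2.16, against -0.05 for all genes tested. None of the 10 passed edgeR's quasi-likelihood test at an adjusted p under 0.01 with an absolute log2 fold change over 1.5, and 0% of all genes did. At an unadjusted p under 0.05 in the same test, 1 of the 10 was lower, *Me1*, against 6.62% of all genes, and none was higher, against 3.86%. DESeq2 with the same thresholds called 0 of the 10 as well, with 306 genes lower and 106 higher among all genes, and placed 5 of the 10 lower at an unadjusted p under 0.05, against 5.27% of the 29805 genes for which it gave a p.

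The spread within a diet was close in size to the difference between diets. On the log2 CPM scale, 0 of the 10 genes had all HFD mice below all LFD mice, against 9.23% of all genes. On the TPM scale 2 did, *Scd2* and *Me1*, against 11.6% of all genes. With the replicate number as a block, which compares same-numbered mice, 7 of the 10 were lower at an unadjusted p under 0.05 in edgeR's test, against 8.76% of all genes. The 7 were *Fasn*, *Acaca*, *Acly*, *Scd2*, *Me1*, *Srebf1* and *Thrsp*. Counts at an unadjusted p were not planned in advance. None of the 10 reached an adjusted p under 0.05 with the block, which 1.04% of all genes did. *Me1* did so in edgeR without HFD replicate 3 (adjusted p = 0.0369) or without LFD replicate 3 (adjusted p = 0.0335). With the block, a mouse whose partner is left out carries no comparison of the diets. Both of these fits therefore rest on the same 2 pairs. The median of the 10 with the block was -1.52, against -0.00 for all genes. Without LFD replicate 1 the median of the 10 was -0.39 in the fit without the block, which still held the same-numbered HFD mouse, and -0.92 in the fit with the block. Without HFD replicate 1 it was -0.91 with the block, from the same 2 pairs as the value of -0.92. The 8 genes were lower in the other pairs as well, which follows from their choice as lower in all 3 pairs.

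**Figure D1:**
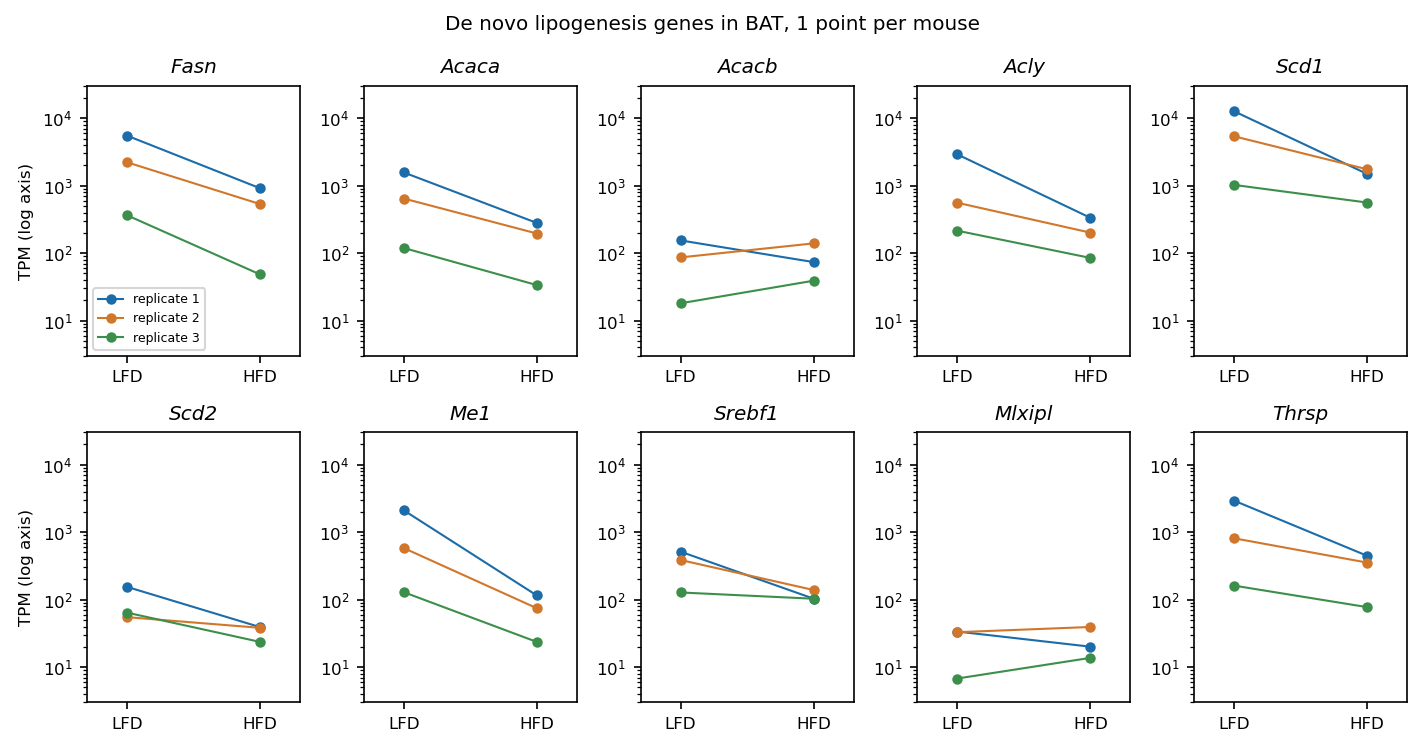
TPM of the 10 lipogenesis genes (vertical log axis, the same in each panel) in LFD-fed and HFD-fed mice, with 1 point per mouse and a line joining mice of the same replicate number. In 8 panels all 3 lines run down from LFD to HFD, and in the *Acacb* and *Mlxipl* panels 2 of the 3 lines run up.

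*Acly* (ENSMUSG00000020917; GRCm38 chr11:100476353-100528000, minus strand) makes the acetyl-CoA of the pathway. Its TPM was 334, 201 and 85.0 in HFD replicates 1 to 3 and 2913, 559 and 215 in LFD replicates 1 to 3. The LFD value was 8.71, 2.78 and 2.53 times the HFD value in the 3 pairs. In TPM the diets overlapped because HFD replicate 1 lay above LFD replicate 3, and on the log2 CPM scale HFD replicate 2 did so too. In edgeR the log2 fold change was -2.54 ± 1.32 (SE, n = 3 per diet; edgeR adjusted p = 0.569).

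*Acaca* (ENSMUSG00000020532; chr11:84129672-84401651, plus strand) encodes acetyl-CoA carboxylase 1, the cytosolic enzyme whose malonyl-CoA feeds fatty acid synthase. Its TPM was 280.3, 195 and 33.6 in HFD mice and 1571, 645 and 119 in LFD mice. The LFD value was 5.60, 3.30 and 3.55 times the HFD value, a narrower range than that of the mice within a diet. Its log2 fold change was -2.16 ± 1.32 (edgeR adjusted p = 0.649), and with the replicate block it was -1.83 (adjusted p = 0.0961).

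*Acacb* (ENSMUSG00000042010; chr5:114146535-114250761, plus strand) encodes acetyl-CoA carboxylase 2, which sits at the mitochondrial outer membrane, where its malonyl-CoA restrains fatty acid entry. Its TPM was 73.7, 139.5 and 39.05 in HFD mice and 154.5, 86.5 and 18.1 in LFD mice. HFD replicate 1 was at 0.477 of its LFD partner, whereas HFD replicates 2 and 3 were at 1.61 and 2.16 times theirs. The fitted log2 fold change was -0.09 ± 0.97 (edgeR adjusted p = 0.988), and with the replicate block it was 0.49.

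*Fasn* (ENSMUSG00000025153; chr11:120805846-120824547, minus strand) encodes the synthase that builds palmitate. Its TPM was 915, 533 and 48.3 in HFD mice and 5515, 2222 and 365 in LFD mice. Both diets spanned more than 10-fold, and HFD replicates 1 and 2 lay above LFD replicate 3. Within pairs the LFD value was 6.03, 4.17 and 7.54 times the HFD value, a narrower range than the spread of either diet. The log2 fold change was -2.30 ± 1.57 (edgeR adjusted p = 0.701), and with the replicate block it was -2.29 ± 0.46 (adjusted p = 0.105).

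*Me1* (ENSMUSG00000032418; chr9:86581371-86695953, minus strand), the cytosolic malic enzyme, had the lowest fold change of the 10 genes. Its TPM was 115.3, 74.6 and 23.6 in HFD mice and 2109, 581 and 129 in LFD mice. Every HFD mouse lay below every LFD mouse on the TPM scale, though not on the log2 CPM scale. The LFD value was 18.3, 7.79 and 5.46 times the HFD value in the 3 pairs. Its log2 fold change was -3.65 ± 1.37 (edgeR adjusted p = 0.424). It was -2.92 ± 0.48 with the replicate block (adjusted p = 0.0771), and DESeq2 gave an adjusted p of 0.0261.

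*Scd1* (ENSMUSG00000037071; chr19:44394455-44407879, minus strand), a delta-9 desaturase that makes oleate and palmitoleate, was the most abundant of the 10 transcripts in all 6 mice. Its TPM was 1494, 1751 and 562 in HFD mice and 12695, 5399 and 1027 in LFD mice. It took 5.10% of all counts in LFD replicate 1 and 0.241% in HFD replicate 3. The LFD value was 8.50, 3.08 and 1.83 times the HFD value, and LFD replicate 3 lay below HFD replicates 1 and 2. The log2 fold change was -2.36 ± 1.35 (edgeR adjusted p = 0.621).

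*Scd2* (ENSMUSG00000025203; chr19:44293674-44306864, plus strand), its neighbour on the same chromosome, is a second delta-9 desaturase. Its TPM was 39.1, 38.2 and 23.6 in HFD mice and 155, 55.05 and 64.2 in LFD mice. The TPM of the diets did not overlap, and the pairs differed by 3.95, 1.44 and 2.72 times. This gave a log2 fold change of -1.38 ± 0.73 (edgeR adjusted p = 0.583). The desaturase genes are close copies among which RSEM divides shared reads, but its posterior SD was at most 15.2 reads for *Scd1* and 14.7 reads for *Scd2*, against at least 2205 counts of either gene in a mouse.

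*Srebf1* (ENSMUSG00000020538; chr11:60199089-60222581, minus strand) encodes SREBP-1a and SREBP-1c, of which the latter drives lipogenic genes. Its TPM was 103.4, 139 and 103.2 in HFD mice and 515, 387 and 128 in LFD mice. The HFD mice were close to each other, and in TPM the diets overlapped only by HFD replicate 2 and LFD replicate 3. On the log2 CPM scale HFD replicate 1 lay above LFD replicate 3 as well. The LFD value was 4.98, 2.78 and 1.24 times the HFD value in the 3 pairs. The log2 fold change was -1.55 ± 0.67 (edgeR adjusted p = 0.490). *Rai1*, on the opposite strand, shares exon positions with *Srebf1* and had 271 to 593 counts, and whether strand was used in counting is not given in the sources used here.

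*Mlxipl* (ENSMUSG00000005373; chr5:135089890-135138382, plus strand) encodes ChREBP, the sugar-responsive factor. Its TPM was 20.1, 39.35 and 13.7 in HFD mice and 33.7, 32.95 and 6.78 in LFD mice. HFD replicate 1 was at 0.596 of its LFD partner, and HFD replicates 2 and 3 were at 1.19 and 2.02 times theirs. It was the least abundant of the 10 transcripts in 5 of 6 mice. Fitted over all mice, the log2 fold change was -0.24 ± 0.79 (edgeR adjusted p = 0.961), and with the replicate block it was 0.24. The gene level does not separate the alpha and beta isoforms of ChREBP.

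*Thrsp* (ENSMUSG00000035686; chr7:97412938-97417730, minus strand) encodes Spot 14, a thyroid hormone-responsive protein found in lipogenic tissues. Its TPM was 447, 354 and 77.5 in HFD mice and 2938, 812 and 161.5 in LFD mice. LFD replicate 3 lay below HFD replicates 1 and 2, and the LFD value was 6.57, 2.29 and 2.08 times the HFD value within pairs. The log2 fold change was -2.16 ± 1.33 (edgeR adjusted p = 0.652).

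**Figure D2:**
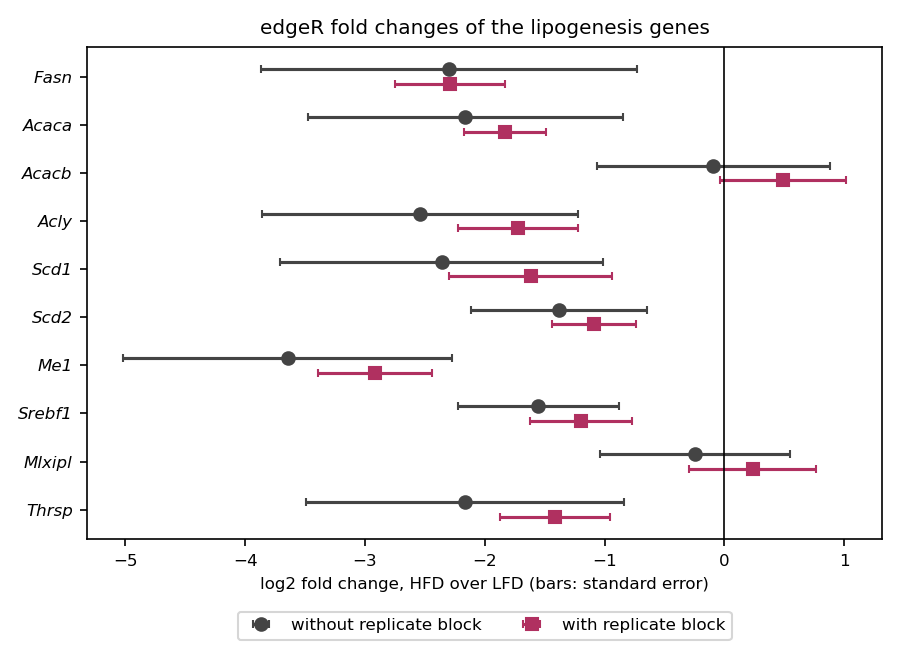
Log2 fold changes (HFD over LFD, horizontal axis) of the 10 genes from edgeR without the replicate block (circles) and with it (squares), with bars for the standard error. The bars of *Fasn* shrink from 1.57 without the block to 0.46 with it, and the points of *Acacb* and *Mlxipl* move from -0.09 and -0.24 to 0.49 and 0.24.

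Taken as a group, the 10 transcripts made up 0.382%, 0.347% and 0.101% of all TPM in HFD replicates 1 to 3 and 2.86%, 1.08% and 0.223% in LFD replicates 1 to 3. The LFD sum was 7.48, 3.11 and 2.21 times the HFD sum within pairs, and LFD replicate 3 lay below HFD replicates 1 and 2. In counts, which weigh long transcripts more, the shares were 1.80%, 1.29% and 0.370% in HFD and 10.7%, 3.64% and 0.694% in LFD mice. *Scd1* held 39.1% to 55.7% of the summed TPM of the group in every mouse. *Fasn* came second in 5 mice and at rank 5 in HFD replicate 3.

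Mice of the same diet differed more in these genes than in most others. The within-diet SD of log2 CPM was 2.50 for *Fasn*, 1.04 for *Srebf1* and in between for the other 8 genes. Its median was 1.88 over the 10 genes and 0.493 over all genes tested. Over the 6 mice, *Fasn* spanned 7.43 log2 units and *Srebf1* 2.96.

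The levels of the 10 genes varied together over the 6 mice, which include both diets. Pearson's r of log2 CPM had a median of 0.927 over the 45 gene pairs. It was highest between *Fasn* and *Acaca* (0.992) and lowest between *Scd2* and *Mlxipl* (0.512). *Acacb* and *Mlxipl*, the genes that differed least between diets, had an r of 0.977 with each other. Among 5073 other genes with a mean log2 CPM of at least 5, those most like the mean profile of the 10 were *Acss2* (r = 0.997), *Rab34* (0.996), *Orm1* (0.995), *Ano10* (0.995) and *Atraid* (0.995). These values rest on 6 mice that share library depth and composition with every gene compared. *Acss2*, the cytosolic acetyl-CoA synthetase, had a TPM of 62.4, 47.1 and 13.6 in HFD and 579, 149 and 30.4 in LFD mice.

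Ratios of genes within a mouse do not move with the scaling between libraries, and 13 were computed. The ratio of *Acaca* to *Acacb* was 3.80, 1.40 and 0.861 in HFD mice and 10.2, 7.46 and 6.60 in LFD mice. Every HFD mouse lay below every LFD mouse, and HFD replicate 3 had more *Acacb* than *Acaca* transcript. The difference of mean log2 ratios was -2.26, with 0.73 ± 1.09 in HFD and 2.99 ± 0.32 in LFD (SD, n = 3; two-sided exact permutation p = 0.1, adjusted p = 0.186 over the 13 ratios). An exact test of 3 against 3 mice cannot give a p below 0.1. The ratio of *Mlxipl* to *Srebf1* was 0.194, 0.283 and 0.133 in HFD and 0.0655, 0.0852 and 0.0531 in LFD mice. Here every HFD mouse lay above every LFD mouse, with a difference of mean log2 ratios of 1.54 (exact permutation p = 0.1, adjusted p = 0.186). How many ratios of other gene pairs would not overlap between the diets was not computed, so the lack of overlap in these ratios has no background to be read against. The ratio of *Scd1* to *Scd2* was 38.2, 45.8 and 23.8 in HFD and 82.1, 98.1 and 16.0 in LFD mice. Those diets overlapped, with a log2 difference of -0.54 (exact permutation p = 0.6). This difference was -0.06 without LFD replicate 2, -0.19 without LFD replicate 1, -0.27 without HFD replicate 3 and -1.37 without LFD replicate 3.

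**Figure D3:**
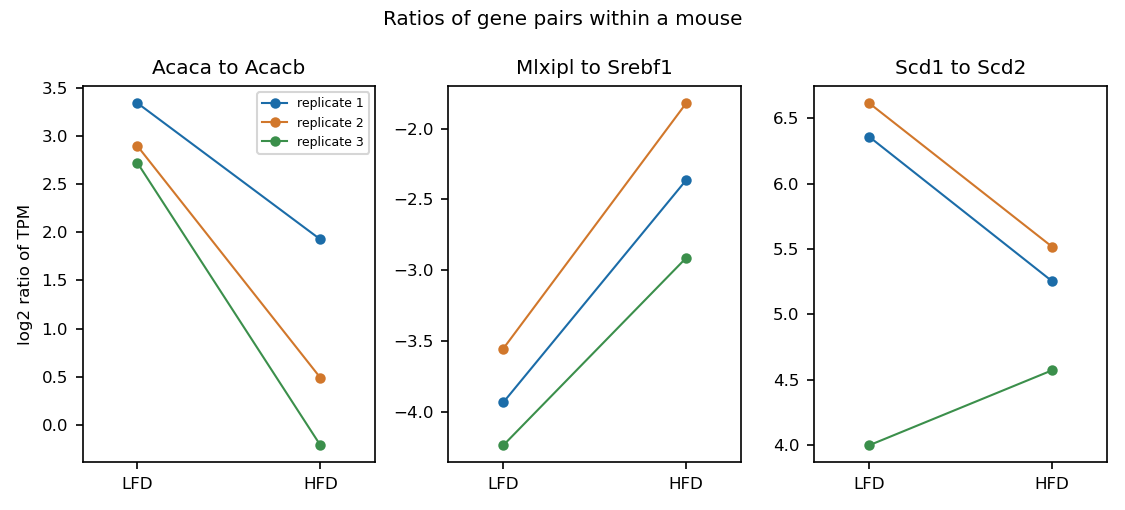
Log2 ratio of TPM (vertical axis, its own range in each panel) of *Acaca* to *Acacb*, *Mlxipl* to *Srebf1* and *Scd1* to *Scd2*, with 1 point per mouse and a line joining mice of the same replicate number. The HFD points lie below the LFD points in the first panel and above them in the second, and the diets overlap in the third.

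Each gene was also set against the mean log2 TPM of 10 adipocyte markers of the same mouse. That mean was 9.29, 9.38 and 8.57 in HFD replicates 1 to 3 and 10.7, 10.4 and 8.41 in LFD replicates 1 to 3. On average it was lower in HFD, so a gene at the same TPM in all mice would come out above 0 here. Relative to these markers, *Me1* (difference of -2.42 on the log2 scale), *Scd1* (-1.08) and *Srebf1* (-0.59) were lower in every HFD mouse than in every LFD mouse. *Acacb* (1.02) and *Mlxipl* (0.95) were higher in every HFD mouse. On TPM alone, their log2 fold changes were 0.24 and 0.17 (limma on log2(TPM + 0.1)). The 5 genes without overlap had an exact permutation p of 0.1 each, the smallest possible, and an adjusted p of 0.186. How many of all genes would not overlap against these markers was not computed. The relative levels of *Fasn* (-1.75), *Acaca* (-1.24), *Acly* (-1.20), *Thrsp* (-0.88) and *Scd2* (-0.54) overlapped between diets. Leaving out a single mouse changed 6 of the 10 values by over 1.5 times. Without HFD replicate 3, *Fasn* was at -0.72, *Acaca* at -0.56 and *Thrsp* at -0.35, and without LFD replicate 1, *Acly* was at -0.61, *Thrsp* at -0.30 and *Scd1* at -0.70. *Scd2* was at -1.12 without LFD replicate 2 and at 0.0066 without LFD replicate 3.

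The choice of reference also mattered. As a second reference, 8 brown adipocyte markers were used, of which 7 were higher in HFD in every pair. Set against them, all 10 genes were lower in every HFD mouse than in every LFD mouse (exact permutation p = 0.1 each). The mean log2 TPM of these markers was itself higher in every HFD mouse (6.84, 7.32 and 5.82) than in every LFD mouse (5.61, 4.19 and 4.11). A gene at the same TPM in all mice would therefore also be lower in every HFD mouse here, so this count does not set the 10 genes apart. *Acacb* and *Mlxipl* turned to -1.78 and -1.85. The other 8 lay between -5.22 (*Me1*) and -3.34 (*Scd2*), with *Fasn* at -4.54, *Acaca* at -4.04, *Acly* at -4.00 and *Thrsp* at -3.68.

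Genes around the pathway were described from lists, and none of their members passed the adjusted test. Counts of genes lower or higher in every pair are on the log2 CPM scale, for which the shares of all genes were 21.3% and 21.1%. Counts on the TPM scale, for which they were 36.9% and 11.3%, are added where they differ. Of 8 genes that supply acetyl-CoA and citrate, 3 were lower in HFD in every pair and none higher, with a median log2 fold change of -0.61. The lowest was *Slc25a1*, the mitochondrial citrate carrier, with a TPM of 155, 125.5 and 50.4 in HFD and 1881, 568 and 143 in LFD mice. Its log2 fold change was -2.95 (edgeR adjusted p = 0.465), whereas the highest of the list was *Cs*, citrate synthase, at 0.45. Of 7 genes listed for NADPH supply besides *Me1*, 1 was lower in every pair (4 on the TPM scale) and none higher. Their median was -0.49, and not all of their enzymes make NADPH themselves. The list ran from *Tkt*, transketolase, at -1.22 to *Rpia*, ribose 5-phosphate isomerase, at -0.17, and neither of these enzymes makes NADPH.

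Elongation and desaturation genes did not share a direction. Of 11 tested out of 12, 3 were lower and 2 higher in HFD in every pair (4 and 1 on the TPM scale), and the median log2 fold change was -0.27. *Tecr*, the reductase of the elongation cycle, was lowest at -1.30, and *Elovl3*, an elongase of brown adipocytes, was highest at 1.96. *Elovl6*, which lengthens palmitate, had a TPM of 80.6, 101 and 23.2 in HFD and 270, 54.8 and 23.4 in LFD mice, and its log2 fold change was -0.82 (edgeR adjusted p = 0.892). It was lower in HFD in 2 of 3 pairs on the TPM scale and in 1 of 3 on the log2 CPM scale. *Scd3* had 5 to 17 counts per mouse and was not tested, and *Scd4* had 3 to 20 counts and a log2 fold change of 0.23.

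Among 7 genes of SREBP processing, 3 were lower in HFD in every pair (4 on the TPM scale) and none higher, with a median of -0.22. *Insig1*, which holds SREBP in the endoplasmic reticulum and is itself an SREBP target, was lowest at -1.40, with a TPM of 77.1, 67.2 and 35.5 in HFD and 277, 174 and 41.65 in LFD mice. *Fbxw7*, a ubiquitin ligase subunit that marks nuclear SREBP for breakdown, was highest at 0.19. The next list held the ChREBP, LXR and USF factors, their partners and targets of ChREBP. Of its 8 tested genes, 3 were lower and 1 higher in every pair (3 and 0 on the TPM scale), with a median of -0.24. *Rxra*, the partner of LXR, was lowest at -1.11 and *Usf1* highest at 0.24, and *Pklr*, a target of ChREBP, was not tested.

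Of 10 genes that act on acetyl-CoA carboxylase, 4 were lower and 2 higher in HFD in every pair (7 and 1 on the TPM scale), and the median was -0.04. *Prkaa2*, a catalytic subunit of the AMP-activated kinase, was lowest at -1.69, and *Brca1*, which binds the phosphorylated enzyme, was highest at 1.05. *Mid1ip1*, a relative of *Thrsp* that promotes assembly of acetyl-CoA carboxylase, had a TPM of 19.1, 17.9 and 15.1 in HFD and 54.8, 39.2 and 23.9 in LFD mice. Every HFD mouse lay below every LFD mouse on the TPM scale, and the log2 fold change was -1.11 (edgeR adjusted p = 0.536). Mitochondrial fatty acid synthesis, a separate system that makes the precursor of lipoic acid, had 7 genes tested. Of these, 0 were lower and 4 higher in every pair (0 and 2 on the TPM scale), with a median of 0.27 and a range from *Lipt2* at -0.40 to *Acsf3* at 0.94.

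Markers of cell types are given beside these values. The summed TPM of 10 adipocyte markers was 7143 to 10602 in HFD and 6444 to 27786 in LFD mice, and the median log2 fold change was -0.79. *Adipoq*, the adipokine adiponectin, was at -1.19 and *Plin1*, a lipid droplet coat protein, at -0.78. Of 8 brown adipocyte markers, 7 were higher in HFD in every pair and 2 in every HFD mouse against every LFD mouse on the log2 CPM scale, which 6.72% of all genes were, and their median was 1.70. Their sum was 1822 to 7199 TPM in HFD and 314 to 2019 TPM in LFD mice, and *Ucp1* had a log2 fold change of 3.67 (edgeR adjusted p = 0.480).

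White adipocyte markers were lower in every pair for 3 of 4 genes, with a median of -2.35 and sums of 43.7 to 311 TPM in HFD and 225 to 1898 TPM in LFD mice. *Lep*, leptin, had a log2 fold change of -1.23 and *Retn*, resistin, of -3.55. *Retn* reached an adjusted p of 0.0279 in edgeR with the replicate block. The 14 skeletal muscle markers had a median of -6.21, with *Acta1*, skeletal actin, at -6.15 and *Ckm*, muscle creatine kinase, at -6.50, and 11 of them had an adjusted p under 0.05 with the block. Of 7 macrophage markers, 1 was lower and 3 higher in every pair (1 and 2 on the TPM scale), with a median of 0.01 and sums of 1587 to 3225 TPM in HFD and 491 to 3790 TPM in LFD mice. *Adgre1*, the F4/80 antigen, was at 1.36 and *Cd68*, a lysosomal protein and the highest of the list, at 1.72. The lowest was *Cd163*, a scavenger receptor, at -1.53. The 6 endothelial markers had a median of 0.84 (sums of 138 to 614 TPM in HFD and 160.2 to 358 TPM in LFD), with *Pecam1* at 0.83 and *Cdh5* at 0.86. The 6 fibroblast and progenitor markers had a median of -1.21 (1413 to 2208 TPM against 1043 to 12680 TPM), with *Pdgfra* at -1.15 and *Col1a1* at -1.25. None of these markers was at 0 in any mouse, and their part in the lipogenic values was not tested.

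**Figure D4:**
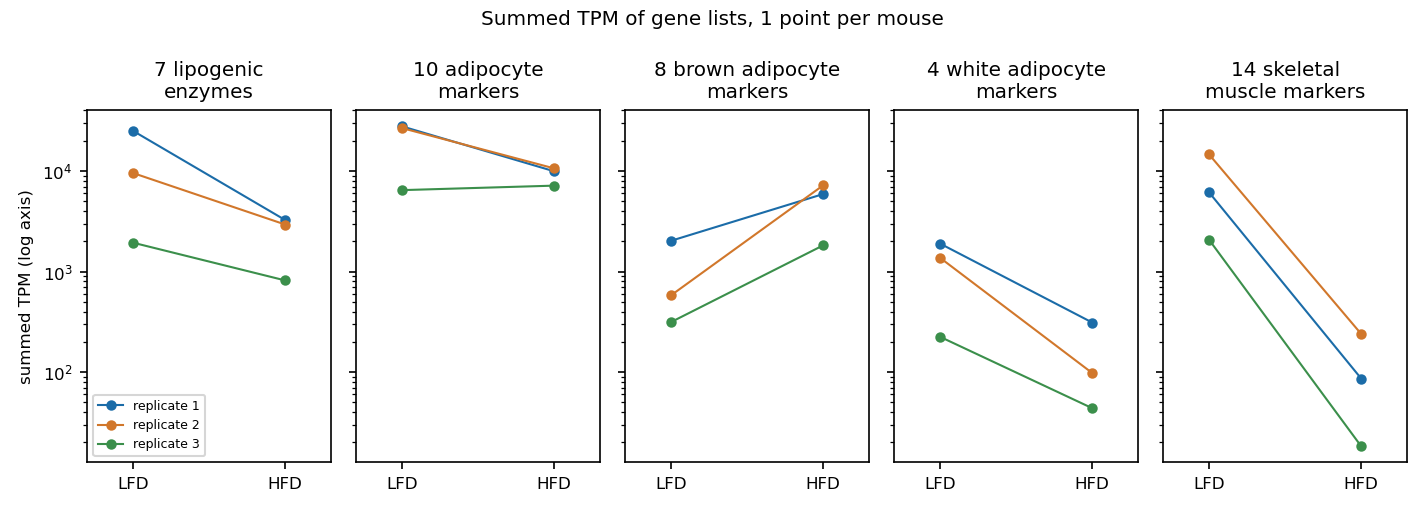
Summed TPM (vertical log axis, shared by the panels) of the 7 lipogenic enzymes and of the adipocyte, brown adipocyte, white adipocyte and skeletal muscle markers, with 1 point per mouse and a line joining mice of the same replicate number. The enzymes lie at 816 to 3252 TPM in HFD and 1937 to 25112 TPM in LFD mice, and all 3 brown marker lines run up from LFD to HFD while all 3 enzyme, white marker and muscle lines run down.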

How the data were processed

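Total RNA depleted of ribosomal RNA was sequenced from BAT of 3 HFD and 3 LFD mice as single-end reads of 75 bases. The authors trimmed the reads with Trimmomatic 0.36 and quantified genes with RSEM 1.3.0 on GRCm38.p4 with the Ensembl annotation, and per the submitters' processing notes they used DESeq2 1.10.1. The authors deposited expected counts, which share a read between matching genes and are not normalized, and TPM, which divides them by effective length and scales each mouse to a fixed total. Other deposited columns used were effective length and the posterior SD of the count. No read came from a row without a gene name.

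Expected counts were rounded and tested with edgeR 4.0.16 in R 4.3.3 (quasi-likelihood, TMM, filterByExpr, Benjamini-Hochberg over 17668 genes), at the adjusted p and fold thresholds of the study (0.01 and 1.5 in log2). Log2 CPM used a prior count of 2. Ratios were compared by exact permutation tests over mice in scipy 1.17.1. The tests were tried on simulated data. The mice were housed singly, and the sources do not say that they were littermates across diets. Same-numbered mice deviated together from their diet's mean (r = 0.498, 0.229 and 0.522, other pairs -0.528 to 0.0532). The deviations of the 3 mice of a diet sum to 0 for each gene, so part of this contrast is arithmetic. These correlations also come from the same data as the fits and do not show that mice were paired. The replicate number, taken from the labels, was used as a block in a second fit. P-values without the block measure the spread between the mice, which were 3 per diet and picked to span fat mass. With the block they measure the spread of the differences between same-numbered mice. The counting error at these depths comes on top for low genes.

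The 10 genes, the pathway lists and the marker lists were chosen with earlier results of these data known. Named genes were the 10, the highest and lowest of each pathway list, *Scd3*, *Scd4*, *Mid1ip1*, *Elovl6* and *Insig1*. The first 2 of each marker list, *Cd163* as the lowest macrophage marker and the 5 most alike genes were also named. *Hsd17b8* and *Wdnm1-like* were not matched, and *Itgam* named several rows and was left out. Alternatives were DESeq2 1.42.0, RLE size factors, other filters, limma 3.58.1 on log2(TPM + 1) and log2(TPM + 0.1), the block, mitochondrially encoded and muscle genes left out, another reference list for ratios, and each mouse left out. Positions are from GENCODE M21. Protein sequences were not used here.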

Additional observations from a re-analysis of the deposited data

How the results depend on the processing

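Precision was limited by 3 mice per diet and a median within-diet SD of 1.88 log2 units over the 10 genes. Under all 16 settings 8 of the 10 genes stayed below 0, *Me1* between -4.58 and -1.62 and *Thrsp* between -3.01 and -0.08. *Acacb* and *Mlxipl* turned positive in 6 settings: 0.49 and 0.24 with the replicate block, 0.23 and 0.15 with limma on log2(TPM + 1), 0.24 and 0.17 on log2(TPM + 0.1), 0.47 and 0.22 without mitochondrial and muscle genes and with the block (chosen after seeing the data), 0.31 and 0.05 without HFD replicate 3, and 1.19 and 0.57 without LFD replicate 1. With a mouse left out they ranged from -0.62 to 1.19 and from -0.76 to 0.57. The cause was not tested. The TPM scale moved the median of all genes to -0.18 and -0.22, against -0.05.

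The number of the 10 genes lower at an unadjusted p under 0.05 was 1 in the test as reported, 5 with DESeq2, 2 with no filter on low counts, 7 with the replicate block, 3 on either TPM scale, 7 without mitochondrial and muscle genes and with the block, and 0 to 6 with a mouse left out. The share of all genes is given above for the test as reported, DESeq2 and the block. For the other settings it was not computed. Counts of genes without overlap (0 as reported) were 2 on either TPM scale and 0 to 5 with a mouse left out, the latter without LFD replicate 3. Any gene is more likely not to overlap with fewer mice. The share of all genes with a mouse left out was not computed, so these counts do not set the 10 genes apart. The median of the 10 lay between -2.92 and -0.39 with a mouse left out. With a mouse left out and the block (chosen after seeing the data), it lay between -1.90 and -0.91, from 2 pairs each time. DESeq2 called 306 genes lower and 106 higher and limma on log2(TPM + 1) called 1 higher. With the block, at an adjusted p under 0.05 and any fold change, 155 were lower and 29 higher. The block changed no other call. The ratio of *Scd1* to *Scd2* lay between -1.37 and -0.06 with a mouse left out, and relative to adipocyte markers *Fasn* lay between -2.48 and -0.72, *Acaca* between -1.73 and -0.56, *Acly* between -1.66 and -0.61, *Scd1* between -1.37 and -0.70 and *Thrsp* between -1.25 and -0.30. Relative to brown adipocyte markers, *Acacb* was at -1.78 and *Mlxipl* at -1.85. *Scd2* relative to adipocyte markers was between -1.12 and 0.0066 with a mouse left out. Of the other 372 recomputed values, counts equalled the value as reported, and log2 fold changes of single genes stayed on their side of the threshold. The ratios kept their sign, but their exact test cannot give a p below 0.1 and so could not cross 0.05. The medians of the 10 stayed negative without all being close, as they ran from -2.92 to -0.91 against -2.16 as reported.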
